A study of Mus musculus with 1078 samples.

Results

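Interferon-induced genes were followed in single cells from intracranial tumors of GL261, a glioma line of the C57Bl/6 background, in C57Bl/6 mice. The 42 genes were taken from a given list, and all 42 were found among the 21765 genes measured. They were described in 4 groups: 13 guanylate-binding protein and immunity-related GTPase genes (GBP/IRG), 15 antiviral genes of the IFIT, OAS, MX and ISG15 kind (IFIT/OAS), 5 transcription factors and RNA sensors, and 9 other members. The mice, 6 to 8 wk old and of both sexes, received losartan (an angiotensin receptor blocker) with anti-PD1 antibody, anti-PD1 alone, losartan alone, or control treatment with vehicle and IgG. The 4 sorts of live cells, CD45-positive, CD45-negative, CD3-positive and CD31-positive, were sequenced by Smart-seq2, a plate method for full-length cDNA of single cells, with 1 plate for each of the 4 treatments in each sort. The 1078 cells had 1023 to 7995 genes above 0, and the authors labelled them T cells (330), malignant cells, tumor endothelial cells (TECs), microglia (89), myeloid cells (74), NK cells (53), B cells (33) and oligodendrocytes (33).

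Several properties of these plates bear on every value. No animal is named, so each treatment of a sort is 1 sample, treatment cannot be told apart from plate, no test between treatments was possible, and every SD is over the cells of 1 plate. The CD31-positive and CD3-positive plates hold TPM, whose read depth is unknown. The CD45-negative and CD45-positive plates, described as TPM too, hold values that were read here as estimated counts, which keep the effect of transcript length, with median totals per plate of 226729 to 795633. Each cell was scaled to 100000 (TP100K), and levels were compared within a sort and not between genes of the count sorts. The 49 cells of the CD45-negative plate labelled losartan carry, in the deposited cell annotation, the experiment name of the losartan+anti-PD1 plate, and results that rest on it are given in both ways. The label microglia joined cells of the authors' cluster 6, led by C1qa, P2ry12, Tmem119 and Cx3cr1, with cells of cluster 11, led by the granulocyte genes S100a9, S100a8 and Retnlg and by no microglia marker, so these clusters were described by number. The leading genes of T cell cluster 4 (Cd8b1, Cd8a) held 1 NK cell marker, Klrd1, and those of malignant cluster 1, which holds nearly all malignant cells of the CD45-negative sort, held 1 microglia marker, Tmem119, while neither held a marker of its own list, so values by cluster number are given with theirs. TECs had all 8 endothelial markers above 0 under each treatment, with median sums of 1075 TP100K under losartan+anti-PD1, 2312 under anti-PD1, 1751 under losartan and 1389 in control.

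Interferons are secreted antiviral and immune signals. Type I interferons act through the receptor chains Ifnar1 and Ifnar2 and a factor complex that holds Stat2 and Irf9 and binds the interferon-stimulated response element (ISRE). Interferon gamma, made mainly by T and NK cells, acts through the receptor chains Ifngr1 and Ifngr2 and on genes that carry the gamma-activated site (GAS), and it also induces Irf1, which binds elements like the ISRE. GBP and IRG genes encode GTPases that attack the vacuoles of intracellular microbes and are strongly induced by interferon gamma, whereas IFIT, OAS, MX and ISG15 genes act against viral RNA and viral proteins and are strongly induced by type I interferon. Each group also responds to the other signal.

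Windows around the start sites of many members hold these elements, and 6 upstream sequences are shown because their genes recur below. Each is the 150 bases before the start of transcription from RefSeq on GRCm38.p6, read 5′ to 3′ on the strand of the gene, with each ISRE core (GAAANNGAAA) and GAS core (TTCNNNGAA) in capitals, on either strand.
Gbp2, chr3:142620513-142620662, plus strand: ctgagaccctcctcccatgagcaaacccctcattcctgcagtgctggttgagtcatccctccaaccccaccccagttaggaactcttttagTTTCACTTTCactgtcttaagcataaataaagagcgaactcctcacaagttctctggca
Gbp7, chr3:142530186-142530335, plus strand: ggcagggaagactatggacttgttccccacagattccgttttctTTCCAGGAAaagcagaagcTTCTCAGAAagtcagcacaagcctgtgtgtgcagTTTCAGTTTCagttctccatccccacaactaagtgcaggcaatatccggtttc
Igtp, chr11:58199406-58199555, plus strand: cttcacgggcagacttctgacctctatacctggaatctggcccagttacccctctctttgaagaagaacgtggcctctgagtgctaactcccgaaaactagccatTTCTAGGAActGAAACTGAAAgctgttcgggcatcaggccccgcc
Ifit1, chr19:34640739-34640888, plus strand: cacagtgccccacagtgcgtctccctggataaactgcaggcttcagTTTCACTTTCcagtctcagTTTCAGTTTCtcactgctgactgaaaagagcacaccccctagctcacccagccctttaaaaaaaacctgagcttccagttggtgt
Rsad2, chr12:26456453-26456602, minus strand: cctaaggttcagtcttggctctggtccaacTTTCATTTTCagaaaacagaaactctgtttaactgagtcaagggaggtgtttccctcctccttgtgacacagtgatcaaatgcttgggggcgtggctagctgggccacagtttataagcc
Isg15, chr4:156200819-156200968, minus strand: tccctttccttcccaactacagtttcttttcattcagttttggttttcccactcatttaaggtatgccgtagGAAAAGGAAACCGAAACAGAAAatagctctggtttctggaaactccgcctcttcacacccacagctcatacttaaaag

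Over the full window, which runs from 250 bases before to 50 bases after the start, 32 of the 42 members matched an entry. Of these, 21 held an ISRE core and 10 a GAS core. The ISRE core lay in 9 of the 10 GBP/IRG genes and 6 of the 11 IFIT/OAS genes that matched, and in 3.99% of all 27025 genes with a window. The GAS core lay in 6 of the 10 GBP/IRG genes and 2 of the 11 IFIT/OAS genes, and in 9.55% of all genes. Gbp7 held 1 ISRE core and 2 GAS cores, Igtp 1 of each, Ifit1 2 ISRE cores and Isg15 3 overlapping ISRE cores. The genes of the GBP/IRG group lie in blocks: Gbp2, Gbp3, Gbp5 and Gbp7 on chromosome 3, Gbp4 and Gbp6 on chromosome 5, and Igtp, Irgm1, Irgm2, Tgtp1, Tgtp2 and Ifi47 on chromosome 11, with Iigp1 on chromosome 18 (GRCm38). Some members share much of their exon sequence with another gene, in runs of 31 bases, and their values are uncertain for that reason. These shares were 84.4% for Tgtp1 and 90.5% for Tgtp2, mostly with each other, 74.2% for Gbp6, 68.8% for Oas1a and 61.8% for Ifit3.

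A member was called when its mean under the first treatment was at least 2-fold above or below that under the second, on the scale of log2(mean TP100K + 1), and only genes detected (above 0) in no less than 25% of cells under one treatment or the other were counted. The share of all such genes that passed the same fold is given beside the first count in each comparison and direction. A gene detected in enough cells only under the treatment where it was higher had to differ, and such genes are named with the counts. The comparisons against control share the control plate of their sort. The ranges over cells of the treatments overlapped for all 42 members in every comparison made. The same count was not made over all genes, so this is not a result about the members.

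In TECs, the GBP/IRG genes were higher under losartan+anti-PD1 than under each other treatment, and the IFIT/OAS genes as a group were not. All 13 GBP/IRG genes passed the detection filter and had higher means under losartan+anti-PD1 (n = 16 cells) than in control (n = 43 cells), at a median log2 ratio of 1.30, while that over all 7003 genes measured was −0.05. Of the 13, 9 were at least 2-fold higher and 0 at least 2-fold lower, whereas 12.4% of all genes were that much higher and 13.4% that much lower. Gbp5 passed the filter only through the losartan+anti-PD1 cells. Median genes detected per TEC were 3366 under losartan+anti-PD1, 2999 under anti-PD1, 3126 under losartan and 3620 in control, and the part of this in the result was not tested. The plot of mean levels in TECs shows 28 of the members.

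Gbp4, which encodes a guanylate-binding GTPase (chr5:105115767-105139586, minus strand), was above 0 in 16 of 16 losartan+anti-PD1 TECs, with a lowest value of 4.72, a median of 68.4 and a highest of 388 TP100K. It was above 0 in 54 of 79 anti-PD1 TECs (median 6.32, highest 190 TP100K), in 29 of 57 losartan TECs (median 0.077, highest 179.2 TP100K) and in 27 of 43 control TECs (median 5.74, highest 327 TP100K). The means were 126.8, 15.8, 15.6 and 28.4 TP100K under losartan+anti-PD1, anti-PD1, losartan and control, a log2 ratio of 2.12 between losartan+anti-PD1 and control. No losartan+anti-PD1 TEC lacked it, and single cells of every other treatment exceeded the losartan+anti-PD1 median.

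Igtp (chr11:58199556-58207591, plus strand) encodes an IRG protein that guards host membranes against the effector GTPases of its own family. It was above 0 in 12 of 16 losartan+anti-PD1 TECs (median 69.1, highest 458 TP100K), 36 of 79 anti-PD1 TECs (median 0, highest 133.1), 25 of 57 losartan TECs (median 0, highest 191.2) and 33 of 43 control TECs (median 10.5, highest 215.03). Its log2 ratio to control was 1.92. Ifi47, another IRG gene, had means of 87.2 TP100K under losartan+anti-PD1, 22.8 under anti-PD1, 29.6 under losartan and 26.6 in control (log2 ratio to control 1.68), and its median cell was at 95.95 TP100K under losartan+anti-PD1 and at 8.45 in control. The shares of cells above 0 were alike for Igtp and Ifi47 under losartan+anti-PD1 and in control, and the levels among expressing cells differed more than the shares did.

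Among the effector GTPases, Iigp1 averaged 78.9 TP100K under losartan+anti-PD1 against 31.5 in control (log2 ratio 1.30), and Tgtp2 averaged 138.2 TP100K against 52.8 (1.37), with the sharing of sequence given above. Irgm1, a regulator of the IRG system, averaged 84.9 TP100K against 40.4 (1.05), and Gbp6 averaged 28.6 against 2.67 TP100K, the highest log2 ratio of any member at 3.01. A single cell held 40.7% of the Gbp6 signal under losartan+anti-PD1. The 4 GBP/IRG genes below 2-fold were Gbp2 (0.73), Irgm2 (0.65), Tgtp1 (0.50) and Gbp3 (0.40), and for Gbp2 1 control cell with 795 TP100K held 39.97% of the control signal.

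**Figure D1:**
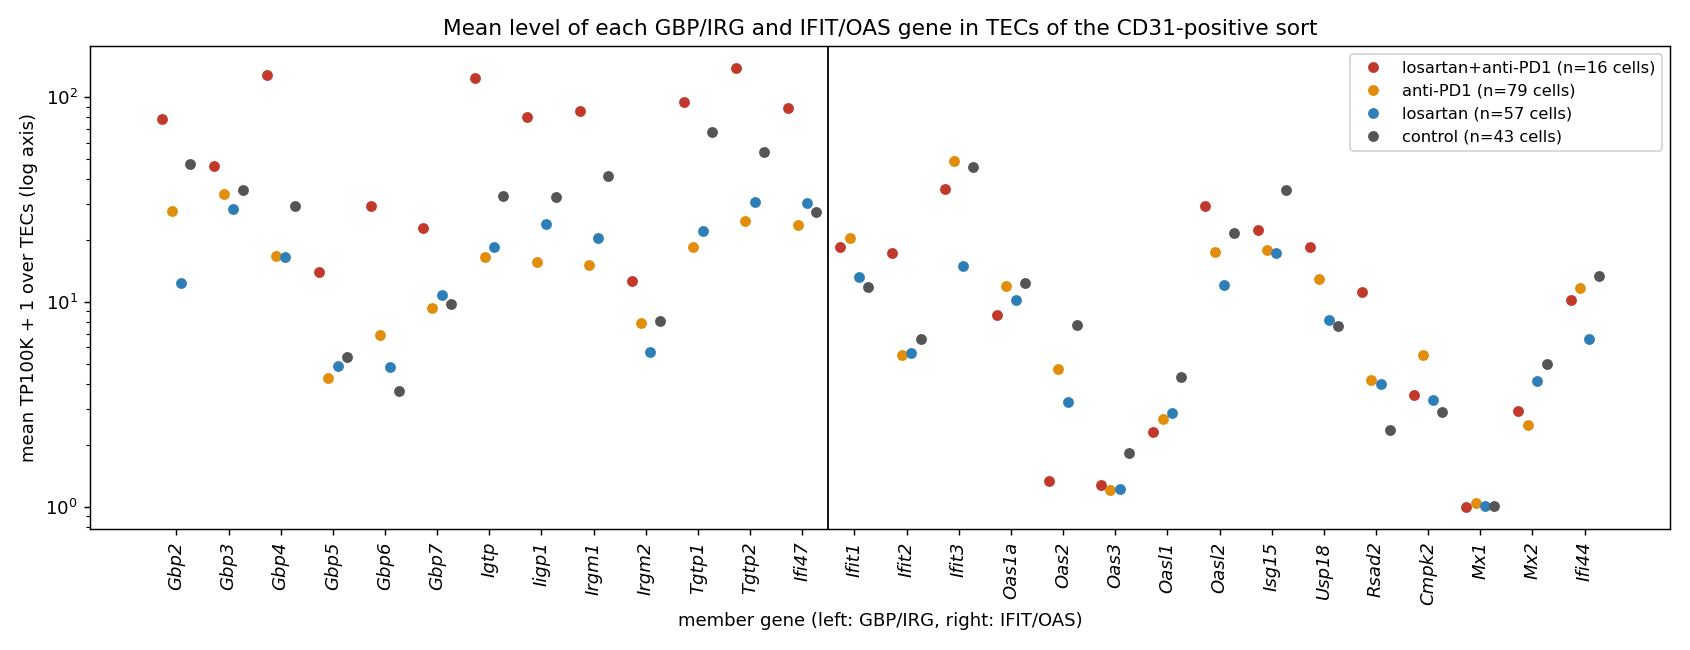
Mean level (TP100K + 1, log axis) of 28 members in TECs of the CD31-positive sort under losartan+anti-PD1 (16 cells), anti-PD1 (79), losartan (57) and control (43), with 1 point per gene and treatment. Most GBP/IRG points of losartan+anti-PD1 lie above those of the other treatments, such as Gbp4 at 126.8 against 28.4 TP100K in control. The IFIT/OAS points are mixed.

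The IFIT/OAS genes in TECs did not move as a group. Of 15 genes, 12 passed the filter, with a median log2 ratio of −0.37 between losartan+anti-PD1 and control. Of these, 3 were at least 2-fold higher and 1 at least 2-fold lower, beside the 12.4% and 13.4% of all genes, and Rsad2 and Oas2 passed the filter only where they were higher. Within cluster 3, with 5 losartan+anti-PD1 and 3 control cells, the median was −1.18. Rsad2 encodes viperin, which makes a chain-terminating nucleotide against viral replication. It was above 0 in 6 of 16 losartan+anti-PD1 TECs and 10 of 43 control TECs, with means of 10.2 and 1.37 TP100K (log2 ratio 2.24), and 1 cell held 49.3% of the losartan+anti-PD1 signal. Ifit2, an RNA-binding antiviral protein gene, averaged 16.3 TP100K against 5.58 (1.39) with 60.7% of its signal in 1 cell, and Usp18, a gene for an ISG15-removing protease that also damps type I interferon signaling, averaged 17.5 against 6.68 TP100K (1.27) with 90.03% in 1 cell. For each of these 3 genes, 1 of the 16 cells held 49.3% or more of the signal.

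Oas2, which encodes an oligoadenylate synthetase that activates RNase L, had the lowest ratio of any member in TECs. It was above 0 in 1 of 16 losartan+anti-PD1 TECs, 17 of 79 anti-PD1 TECs, 13 of 57 losartan TECs and 20 of 43 control TECs, with means of 0.341, 3.70, 2.27 and 6.74 TP100K. Isg15, a ubiquitin-like modifier gene, averaged 21.4 TP100K under losartan+anti-PD1, 16.9 under anti-PD1, 16.3 under losartan and 34.2 in control (log2 ratio to control −0.65), and was above 0 in 10 of 16 and 32 of 43 cells of losartan+anti-PD1 and control. Mx1 was at 0 in all 16 losartan+anti-PD1 TECs, which allows a share of up to 18.8%. Ifit3 means were 34.7 and 44.6 TP100K and Ifit1 means 17.5 and 10.8 TP100K under losartan+anti-PD1 and control, each below 2-fold.

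The factors, sensors and other members held few differences in TECs. Ddx58, the RIG-I sensor gene, averaged 3.49 TP100K under losartan+anti-PD1 against 9.27 in control (log2 ratio −1.19), and Irf7, the amplifier of type I interferon genes, averaged 31.9 against 30.6. Among the 9 others, Parp14, a mono-ADP-ribosyltransferase gene, was higher (7.99 against 2.88 TP100K, 1.21), and Trim30a was lower (6.69 against 15.3 TP100K, −1.08), with 52.3% of its control signal in 1 cell. Bst2, the tetherin gene, had the highest mean of any member under anti-PD1, losartan and control, with means of 73.9, 64.8, 69.9 and 99.97 TP100K under losartan+anti-PD1, anti-PD1, losartan and control.

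Neither single agent gave higher GBP/IRG levels than control in TECs. Under anti-PD1 (n = 79 cells) the median log2 ratio of the 13 genes to control was −0.76, and 4 were at least 2-fold lower (7.4% of all genes). Within cluster 3, which held 78 of the anti-PD1 cells but 3 of the control cells, this median was −0.02. Tgtp1 (−1.86), Irgm1 (−1.45) and Zbp1 (−1.25), a nucleic acid sensor gene of the other members, were lowest, and Slfn2 (1.67) and Gbp6 (0.92) highest, Slfn2 having passed the filter only through the anti-PD1 cells. Under losartan (n = 57) the median of 12 measured GBP/IRG genes was −0.65 and that of 11 IFIT/OAS genes −0.59, with 3 and 4 genes at least 2-fold lower (6.35% of all genes), Gbp2 (−1.94), Trim30a (−1.63) and Tgtp1 (−1.61) the lowest members and Gbp6 (0.39) the highest. Within clusters 7 and 12 alone the GBP/IRG median of losartan against control was 0.08, and within cluster 3 the IFIT/OAS median was −1.70. In turn, losartan+anti-PD1 against anti-PD1 gave a GBP/IRG median of 2.09 with 11 of 13 genes at least 2-fold higher (11.2% of all genes), led by Gbp4 (2.93), Igtp (2.90) and Irgm1 (2.50). Losartan+anti-PD1 against losartan gave 2.06 with 12 of 13 (11.7% of all genes), led by Gbp4 (2.95), Igtp (2.74) and Gbp2 (2.67), with medians of 3.27 within cluster 3 and 1.38 within clusters 7 and 12. The IFIT/OAS medians of these comparisons were 0.20 over 10 genes, which turned to −0.03 within cluster 3, and 0.91 over 10 genes, which was 0.04 in cells of 2000 to 6000 genes.

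A score per cell, the mean of ln(TP100K + 1) over the genes of a group, was also highest under losartan+anti-PD1 for the GBP/IRG genes. The GBP/IRG score of TECs was 2.73 ± 1.48 under losartan+anti-PD1, 1.35 ± 0.83 under anti-PD1, 1.24 ± 1.02 under losartan and 1.82 ± 1.01 in control (SD over cells). The losartan+anti-PD1 cells ran between 0.275 and 4.69 and the control cells between 0.218 and 4.02, so the difference of the means was smaller than the SD among losartan+anti-PD1 cells. A losartan+anti-PD1 TEC had 69.7% of the 13 genes above 0 on average, against 48.2% under anti-PD1, 43.7% under losartan and 61.4% in control. The IFIT/OAS score was 0.87 ± 0.58, 0.84 ± 0.64, 0.67 ± 0.58 and 1.07 ± 0.75 under losartan+anti-PD1, anti-PD1, losartan and control.

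**Figure D2:**
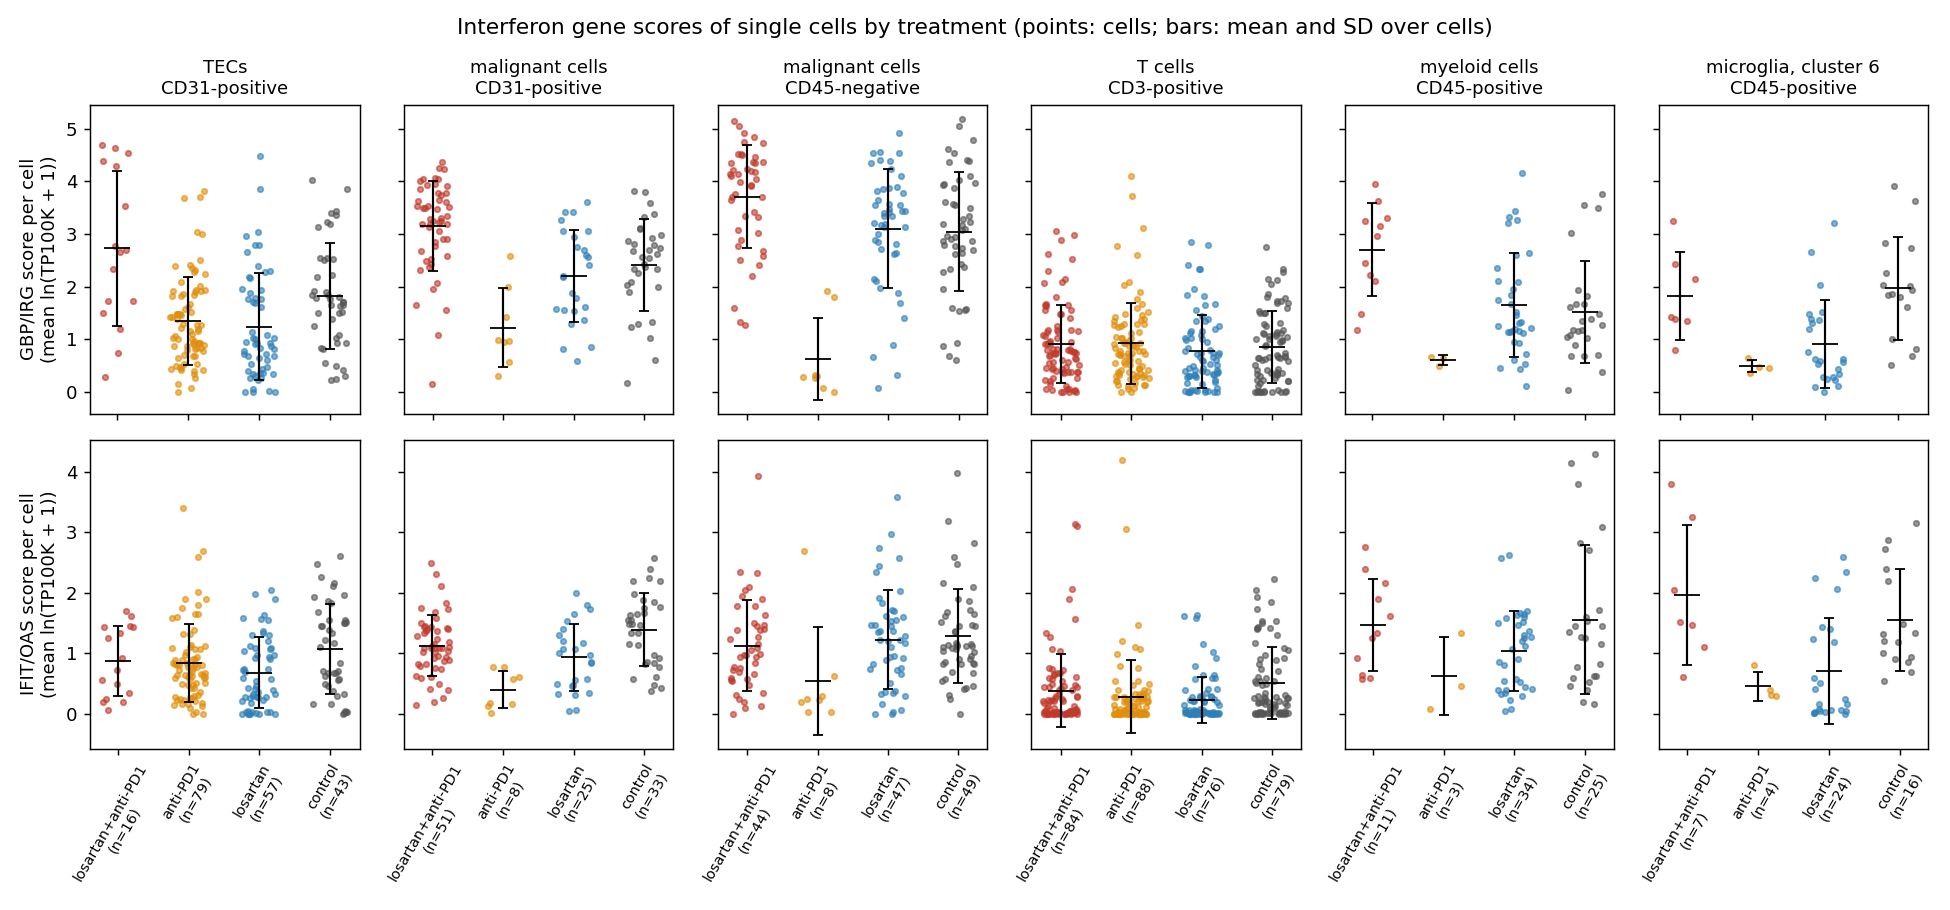
Score per cell, the mean of ln(TP100K + 1), for the GBP/IRG genes (upper row) and the IFIT/OAS genes (lower row) in 6 cell groups, with 1 point per cell, a bar at the mean and treatments ordered losartan+anti-PD1, anti-PD1, losartan, control. GBP/IRG means of TECs were 2.73, 1.35, 1.24 and 1.82 in that order, and the cells of all treatments overlap.

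The authors' TEC clusters were filled unequally by treatment. Cluster 3, with the brain endothelial transporter genes Slco1c1 and Slco1a4 among its leading genes, held 5 of the 16 losartan+anti-PD1 TECs, 78 of 79 anti-PD1 TECs, 29 of 57 losartan TECs and 3 of 43 control TECs. In cluster 3 the GBP/IRG score was 2.98 ± 1.47 under losartan+anti-PD1, 1.33 ± 0.83 under anti-PD1, 0.67 ± 0.60 under losartan and 1.92 ± 0.55 in control. The leading genes of cluster 7 began with Il10, Ms4a6d and Ctsw and also held Apln and Aplnr. The GBP/IRG score there was 3.81 ± 1.41 under losartan+anti-PD1 (4 cells), 1.70 ± 0.97 under losartan (24) and 1.995 ± 0.97 in control (28). In cluster 12, led by Plvap, it was 1.93 ± 1.204 under losartan+anti-PD1 (7 cells), 2.62 ± 1.27 under losartan (4) and 1.38 ± 1.12 in control (12). The losartan+anti-PD1 mean was thus above control in each cluster and below losartan in cluster 12. The median log2 ratio to control was 1.62 in cluster 3 and 1.37 over clusters 7 and 12. The IFIT/OAS score in cluster 3 was 1.02 under losartan+anti-PD1 against 1.66 in the 3 control cells. Of the T cell markers, 0 of 7 were above 0 in losartan+anti-PD1 TECs, and of the macrophage markers 1 of 8 was, with a highest sum of 0.104 TP100K in any cell, against 4 of 8 and a mean sum of 2.70 TP100K in control TECs.

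Malignant cells were measured in 2 sorts, and in both the GBP/IRG genes were higher under losartan+anti-PD1 than in control while IFIT/OAS genes were not. In the CD31-positive sort, 51 losartan+anti-PD1 cells and 33 control cells carried the malignant label. The GBP/IRG median log2 ratio was 0.92, and 6 of 13 genes were at least 2-fold higher, whereas 0.571% of 9979 genes were. The IFIT/OAS median over 12 genes was −0.48, 12 of 12 had lower means, and 2 were at least 2-fold lower (0.842% of all genes).

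Gbp4 was above 0 in 48 of 51 losartan+anti-PD1 malignant cells, with a median of 25.4 and a highest value of 159.3 TP100K, and in 29 of 33 control cells, with a median of 3.73 and a highest value of 37.6 TP100K. Its means were 32.99 TP100K under losartan+anti-PD1, 7.71 under losartan and 6.48 in control, a log2 ratio to control of 2.18. Igtp was above 0 in 51 of 51 losartan+anti-PD1 cells, from 0.563 over a median of 187.6 to 405 TP100K, and in 32 of 33 control cells, with a median of 74.2 and a highest value of 214.6 TP100K (log2 ratio 1.35). For both genes the losartan+anti-PD1 median lay above that of control and within the range of the control cells.

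Gbp2, with 1 ISRE core and no GAS core in the sequence above, averaged 84.5 TP100K under losartan+anti-PD1, 22.5 under losartan and 37.7 in control (log2 ratio to control 1.14). Ifi47 averaged 85.4, 32.8 and 32.004 TP100K under losartan+anti-PD1, losartan and control (1.39), Iigp1 32.4, 6.24 and 13.98 TP100K (1.16) and Tgtp1 65.8, 32.6 and 31.6 TP100K (1.04). Only 8 malignant cells of this sort came from the anti-PD1 plate, with a median of 5304.5 genes above 0 against 7188 in control, and their Gbp4 mean was 0.582 TP100K.

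The lowest members in this comparison were Rsad2, Ifit1 and Irf7. Rsad2 averaged 2.16 TP100K under losartan+anti-PD1, 1.71 under losartan and 9.64 in control (log2 ratio −1.75 for losartan+anti-PD1), with 53.5% of the control signal in 1 cell. Ifit1 was above 0 in 33 of 51 losartan+anti-PD1 cells, 11 of 25 losartan cells and 27 of 33 control cells, with means of 5.17, 3.54 and 12.998 TP100K (−1.18). Isg15 was above 0 in all 33 control cells and averaged 18.4 TP100K under losartan+anti-PD1 against 31.3 in control, below 2-fold (−0.73), and Irf7 averaged 4.98 against 10.7 TP100K (−0.97). Bst2 differed little, with 167.04 TP100K under losartan+anti-PD1 against 147.8 in control.

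Losartan alone, in 25 malignant cells of this sort, had lower IFIT/OAS levels than control without higher GBP/IRG levels. The IFIT/OAS median log2 ratio was −0.90 over 12 genes, with 4 at least 2-fold lower (1.24% of all genes), led by Rsad2 (−1.97), Ifit1 (−1.63) and Ifit3 (−1.49). The GBP/IRG median was −0.21, with Gbp4 (0.22), Tgtp1 (0.04), Ifi47 (0.03), Irgm1 (0.02) and Igtp (−0.03) the highest members. Losartan+anti-PD1 against losartan gave a GBP/IRG median of 1.11 with 7 of 13 genes at least 2-fold higher (1.36% of all genes), led by Iigp1 (2.21), Gbp4 (1.96) and Gbp2 (1.87), and an IFIT/OAS median of 0.44. In cells of 2000 to 6000 genes, of which there were 7 under losartan+anti-PD1, 4 under losartan and 5 in control, these were 1.76 and 1.87, and the IFIT/OAS median of losartan against control was −2.91. The GBP/IRG score was 3.15 ± 0.85 under losartan+anti-PD1, 2.2 ± 0.88 under losartan and 2.41 ± 0.87 in control, and the IFIT/OAS score was 1.12 ± 0.50, 0.93 ± 0.56 and 1.39 ± 0.61 in the same cells.

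In the CD45-negative sort, 44 losartan+anti-PD1 cells and 49 control cells were compared, and the differences were smaller. All 13 GBP/IRG genes passed the filter and had higher means under losartan+anti-PD1. Their median log2 ratio was 0.55, and 2 were at least 2-fold higher (1.3% of all 9852 genes). Gbp4 averaged 119.8 TP100K under losartan+anti-PD1 (median 74.9) against 44.4 in control (median 20.6), a log2 ratio of 1.41, and Gbp5 averaged 9.57 against 4.11 TP100K (1.05). Igtp was above 0 in 44 of 44 losartan+anti-PD1 cells and averaged 198.6 TP100K against 108.4 in control (0.87), and Ifi47 averaged 88.04 against 52.6 TP100K (0.73). Slfn2, of the other members, also passed 2-fold (1.02) at low means of 1.24 against 0.0998 TP100K, and passed the filter only through the losartan+anti-PD1 cells.

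The IFIT/OAS median in these cells was −0.27 (−1.04 in the 11 losartan+anti-PD1 and 8 control cells of 2000 to 6000 genes), no gene of the group passed 2-fold, and the lowest members were Rsad2 (−0.92), Irf7 (−0.88) and Rtp4 (−0.86). Rsad2 averaged 18.3 TP100K under losartan+anti-PD1 against 35.4 in control, with 64.5% and 82.97% of the signal in 1 cell. The plate labelled losartan (47 malignant cells) had medians of 0.18 for GBP/IRG and −0.14 for IFIT/OAS genes against control, its highest members being Slfn2 (0.84), Ifit2 (0.74) and Isg15 (0.65) and its lowest Slfn8 (−1.71), Gbp5 (−1.13) and Ifi44 (−0.75). Slfn2 passed the filter only through the cells of that plate. Against it, losartan+anti-PD1 cells had a GBP/IRG median of 0.23 with 3 of 13 genes at least 2-fold higher (1.11% of all genes), led by Gbp5 (2.18) and Gbp4 (1.73). With that plate counted as losartan+anti-PD1, after the experiment name in the annotation, the medians against control were 0.31 for GBP/IRG and −0.21 for IFIT/OAS genes. Within cluster 1 the GBP/IRG score was 3.71 under losartan+anti-PD1, 3.19 in the plate labelled losartan and 3.04 in control.

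**Figure D3:**
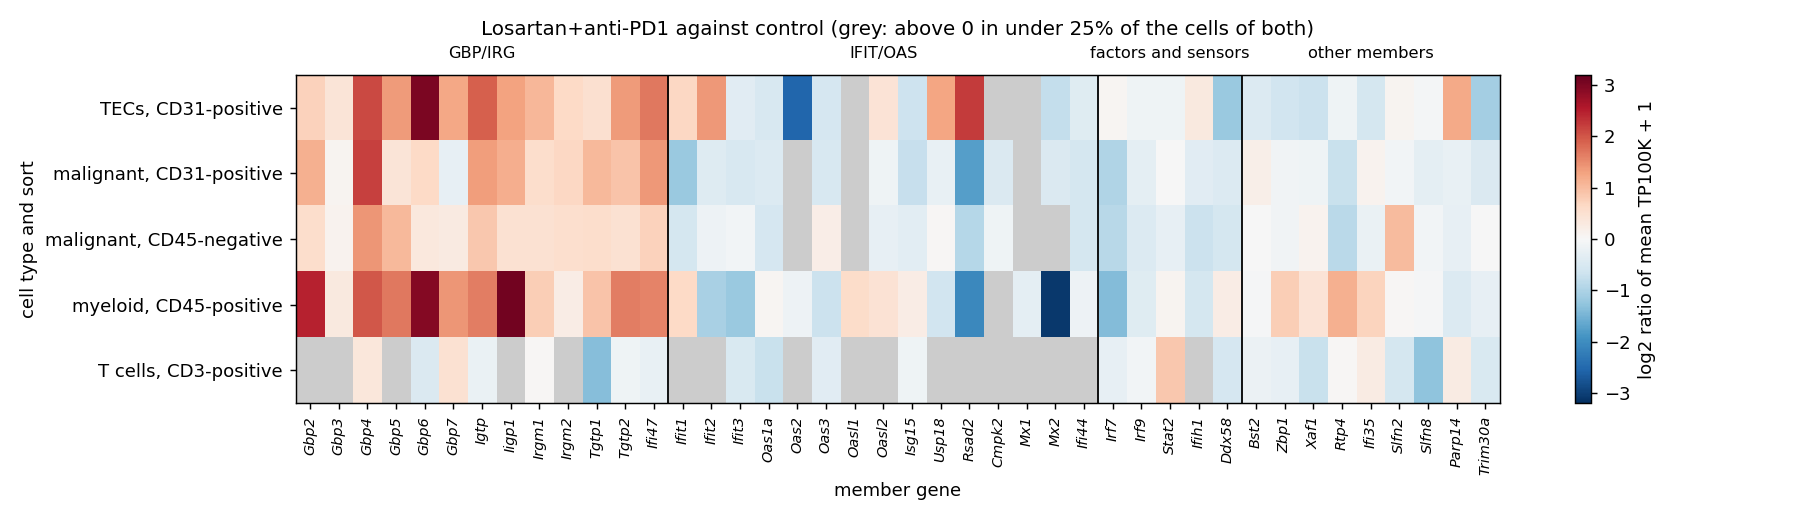
Heat map of the log2 ratio of mean TP100K + 1 between losartan+anti-PD1 and control. Rows are 5 cell groups, with malignant cells of both sorts, and columns are the 42 members, by gene group. Grey marks a gene above 0 in under 25% of the cells of both treatments. Nearly all GBP/IRG genes are above 0 in TECs, malignant cells of both sorts and myeloid cells, such as Gbp4 at 2.12, 2.18, 1.41 and 1.99. The IFIT/OAS genes are mixed or below 0 there.

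Myeloid cells of the CD45-positive sort, all of the authors' cluster 5 and with the dendritic cell gene Flt3 among its leading genes, had the widest gap between the medians of the GBP/IRG and IFIT/OAS genes among the comparisons of losartan+anti-PD1 with control. Under losartan+anti-PD1 (n = 11 cells) the 13 GBP/IRG genes all had higher means than in control (n = 25 cells), with a median log2 ratio of 1.63, and 9 were at least 2-fold higher (14.4% of all 6845 genes). Of 14 IFIT/OAS genes measured, 0 were at least 2-fold higher and 4 at least 2-fold lower (18.5% of all genes), with a median of −0.24.

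Gbp2 was above 0 in 11 of 11 losartan+anti-PD1 myeloid cells, with a lowest value of 32.3, a median of 187.1 and a highest of 395 TP100K. It was above 0 in 25 of 34 losartan cells (median 15.1, highest 399 TP100K) and in 13 of 25 control cells (median 0.462, highest 181.7 TP100K), and the log2 ratio of losartan+anti-PD1 to control was 2.47. The losartan+anti-PD1 median was above the highest control cell. Iigp1 had the highest ratio (3.09), with means of 106.5 against 11.6 TP100K, but 45.8% of its losartan+anti-PD1 signal lay in 1 cell. Gbp6 was above 0 in 7 of 11 cells against 3 of 25 (means 20.2 and 1.75 TP100K, log2 ratio 2.94), having passed the filter only through the losartan+anti-PD1 cells, and Gbp4 (1.99), Gbp5 (1.68), Igtp (1.63) and Ifi47 (1.60) followed.

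The members that were lower in these cells were antiviral genes and Irf7. Mx2 is of the MX dynamin-like GTPase family and is annotated as a polymorphic pseudogene in GENCODE vM21. It was at 0 in all 11 losartan+anti-PD1 cells, which allows a share of up to 27.3%. It was above 0 in 5 of 34 losartan cells and 8 of 25 control cells, so it passed the filter only through control. Rsad2 averaged 4.95 TP100K under losartan+anti-PD1 against 23.9 in control (−2.07), Ifit3 31.3 against 72.9 (−1.196) and Ifit2 32.7 against 68.5 (−1.04). Irf7 was above 0 in 7 of 11 losartan+anti-PD1 cells, with a median of 8.37 TP100K, and in 23 of 25 control cells, with a median of 43.9 TP100K (−1.39). Isg15 was above 0 in 11 of 11 cells and did not differ by 2-fold, with means of 12.9 and 10.8 TP100K.

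Losartan alone (n = 34 myeloid cells) had 10 of 14 IFIT/OAS genes at least 2-fold lower than control (3.11% of 7460 genes), with a median log2 ratio of −1.68 beside 0.17 over all genes, while the GBP/IRG median was 0.16. Rsad2 (−3.51), Oasl1 (−3.22), an OAS-like gene, and Mx1 (−2.50) were lowest and Ddx58 (1.196) and Gbp6 (0.76) highest. Oasl1 was above 0 in 4 of 34 losartan cells and 11 of 25 control cells, with means of 0.785 and 15.6 TP100K. Of the 10, 3 (Mx2, Oasl1 and Rsad2) passed the filter only through control. With genes above 0 in at least 50% of cells only, this IFIT/OAS median was −0.86. Losartan+anti-PD1 against losartan gave medians of 1.69 for GBP/IRG genes, with 9 of 13 at least 2-fold higher (9.63% of all genes), and 0.81 for IFIT/OAS genes. The highest of all members were Oasl1 (3.80), Iigp1 (3.54) and Gbp2 (2.21), Oasl1 having passed the filter only through the losartan+anti-PD1 cells. The GBP/IRG score was 2.70 ± 0.89 under losartan+anti-PD1, 1.65 ± 0.98 under losartan and 1.52 ± 0.97 in control. Only 3 myeloid cells came from the anti-PD1 plate. Median totals per plate in this sort were 233493 estimated counts under losartan+anti-PD1, 226729 under anti-PD1, 388932 under losartan and 365560 in control, and thinned to 50000 counts per cell the losartan+anti-PD1 medians against control were 1.51 for GBP/IRG and −0.42 for IFIT/OAS genes. In cells of 2000 to 6000 genes, which leaves out 1 of the 11 losartan+anti-PD1 cells and none of the control cells, they were 1.03 and −1.87, and the IFIT/OAS median of losartan+anti-PD1 against losartan was −0.0052.

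Among the comparisons of losartan+anti-PD1 with control, both groups had positive medians only in cells labelled microglia, with medians of 1.44 for 12 GBP/IRG and 1.52 for 12 IFIT/OAS genes against control, and 8 and 10 genes at least 2-fold higher (12.2% of all 5849 genes, whose median was −0.24). Of these, Gbp5 and Tgtp1 passed the filter only through the losartan+anti-PD1 cells. The highest members were Ifit1 (4.46), Tgtp1 (4.41), Rsad2 (3.58), Oasl1 (2.90) and Isg15 (2.81), and the lowest Gbp6 (−2.65), Iigp1 (−1.56) and Gbp4 (−0.96). Only 13 cells under losartan+anti-PD1 and 28 in control carried the label, of which 7 and 16 were in cluster 6.

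By cluster, the genes differed. In cluster 6, Gbp2 was above 0 in 6 of 7 losartan+anti-PD1 cells and 12 of 16 control cells, with medians of 52.3 and 16.9 TP100K, and Irf7 was above 0 in every cell of both, with medians of 57.05 and 48.2 TP100K. Ifit1 averaged 91.1 TP100K against 2.34 and Oasl1 53.4 against 11.4 there, whereas Gbp4 averaged 15.2 against 29.7. The median GBP/IRG log2 ratio was 0.68 in cluster 6, but the mean score was 1.82 ± 0.83 under losartan+anti-PD1 against 1.96 ± 0.97 in control, so the ratio of means and the score differed in sign. The IFIT/OAS score in cluster 6 was 1.97 ± 1.16, 0.70 and 1.55 ± 0.84 under losartan+anti-PD1, losartan and control.
In cluster 11, with granulocyte leading genes, Gbp4 was at 0 in all cells of every treatment. Rsad2 was above 0 in 5 of 6 losartan+anti-PD1 cells (mean 231.3 TP100K), 2 of 4 anti-PD1 cells (326) and 2 of 12 control cells (10.1), and Isg15 averaged 41.99, 17.02 and 0.742 TP100K under losartan+anti-PD1, anti-PD1 and control.

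T cells of the CD3-positive sort had low scores and no difference in GBP/IRG genes of the size seen in TECs. Between losartan+anti-PD1 (n = 84 cells) and control (n = 79 cells) the GBP/IRG median was −0.17 over the 8 genes measured, and the IFIT/OAS median −0.42 over 4. Of the 25 members measured, 0 were at least 2-fold higher and 2 at least 2-fold lower, Tgtp1 (−1.35) and Slfn8 (−1.29), a Schlafen family gene, beside 1.62% of all genes. Stat2 (0.87) and Gbp7 (0.50) were the highest, Stat2 having passed the filter only through the losartan+anti-PD1 cells.

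Ifi47 was the most abundant GBP/IRG gene in T cells, above 0 in 46 of 84 losartan+anti-PD1 cells, 49 of 88 anti-PD1 cells, 37 of 76 losartan cells and 41 of 79 control cells, with means of 50.6, 58.2, 57.7 and 59.4 TP100K. These means differed by far less than the spread among cells. Gbp2 was above 0 in only 18 of 84 losartan+anti-PD1 cells (mean 20.8 TP100K) and 12 of 79 control cells (4.58), under the detection filter. Isg15 was above 0 in 30 of 84 losartan+anti-PD1 cells, 15 of 88 anti-PD1 cells, 17 of 76 losartan cells and 29 of 79 control cells, and it was the only member at least 2-fold lower under anti-PD1 than in control (−1.13, 4.1% of all genes), having passed the filter only through control.

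Under losartan, 5 of 24 measured members were at least 2-fold lower than in control (2.75% of all genes), 4 of them (Ifit3, Oas1a, Ddx58 and Slfn8) detected in enough cells only in control, with Ifit3 (−2.12), Slfn8 (−1.78) and Oas1a (−1.34) the lowest and Tgtp1 (0.84) and Gbp4 (0.75) the highest. Ifit3 was above 0 in 6 of 76 losartan cells and 21 of 79 control cells, with means of 7.20 and 34.5 TP100K. The GBP/IRG score of T cells was 0.91 ± 0.73, 0.92 ± 0.77, 0.77 ± 0.70 and 0.85 ± 0.68 under losartan+anti-PD1, anti-PD1, losartan and control. By cluster, the IFIT/OAS score in cluster 4 was 0.517 under losartan+anti-PD1 (12 cells), 0.355 under anti-PD1 (56), 0.419 under losartan (4) and 0.930 in control (20), and in cluster 0, led by Cd4 and Tnfrsf4, 0.355 (72), 0.148 (32), 0.219 (72) and 0.359 (59). Of the T cells, 25 had 3 or more macrophage markers above 0, and without them the GBP/IRG median between losartan+anti-PD1 and control was −0.23. Over all 10 alternatives this median ran from −0.23 to 0.24 and kept its sign in 7.

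NK and B cells were few. In NK cells, 36 under losartan+anti-PD1 and 10 in control, 2 of 6 measured GBP/IRG genes were at least 2-fold higher, Igtp (2.002) and Irgm1 (1.21), and 1 at least 2-fold lower, Gbp3 (−1.32), beside 17.2% and 14.4% of all genes. All 3 passed the filter only under the treatment where they were higher. Xaf1 (−1.81), a proapoptotic gene, and Slfn2 (−1.71) were lowest. Igtp was above 0 in 9 of 36 losartan+anti-PD1 cells and 1 of 10 control cells, with means of 3.40 and 0.0976 TP100K. Oas2, Cmpk2 and Mx2 were at 0 in all NK cells of both treatments.
In B cells, compared between losartan+anti-PD1 (n = 12) and anti-PD1 (n = 13), 7 of 10 measured GBP/IRG genes were at least 2-fold higher, with a median of 1.78, beside 22.8% of all genes, and 4 of the 7 (Gbp2, Gbp3, Gbp6 and Ifi47) passed the filter only through the losartan+anti-PD1 cells. Gbp6 (4.001), Rtp4 (3.204), Irgm1 (2.47), Gbp2 (2.46) and Ifi47 (2.41) were highest and Ddx58 (−1.68) lowest. Gbp6 was above 0 in 6 of 12 losartan+anti-PD1 cells and 2 of 13 anti-PD1 cells, whereas 98.5% of the Gbp2 signal under losartan+anti-PD1 lay in 1 cell. Ifit1 and Ifi44 were at 0 in all of these B cells.

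**Figure D4:**
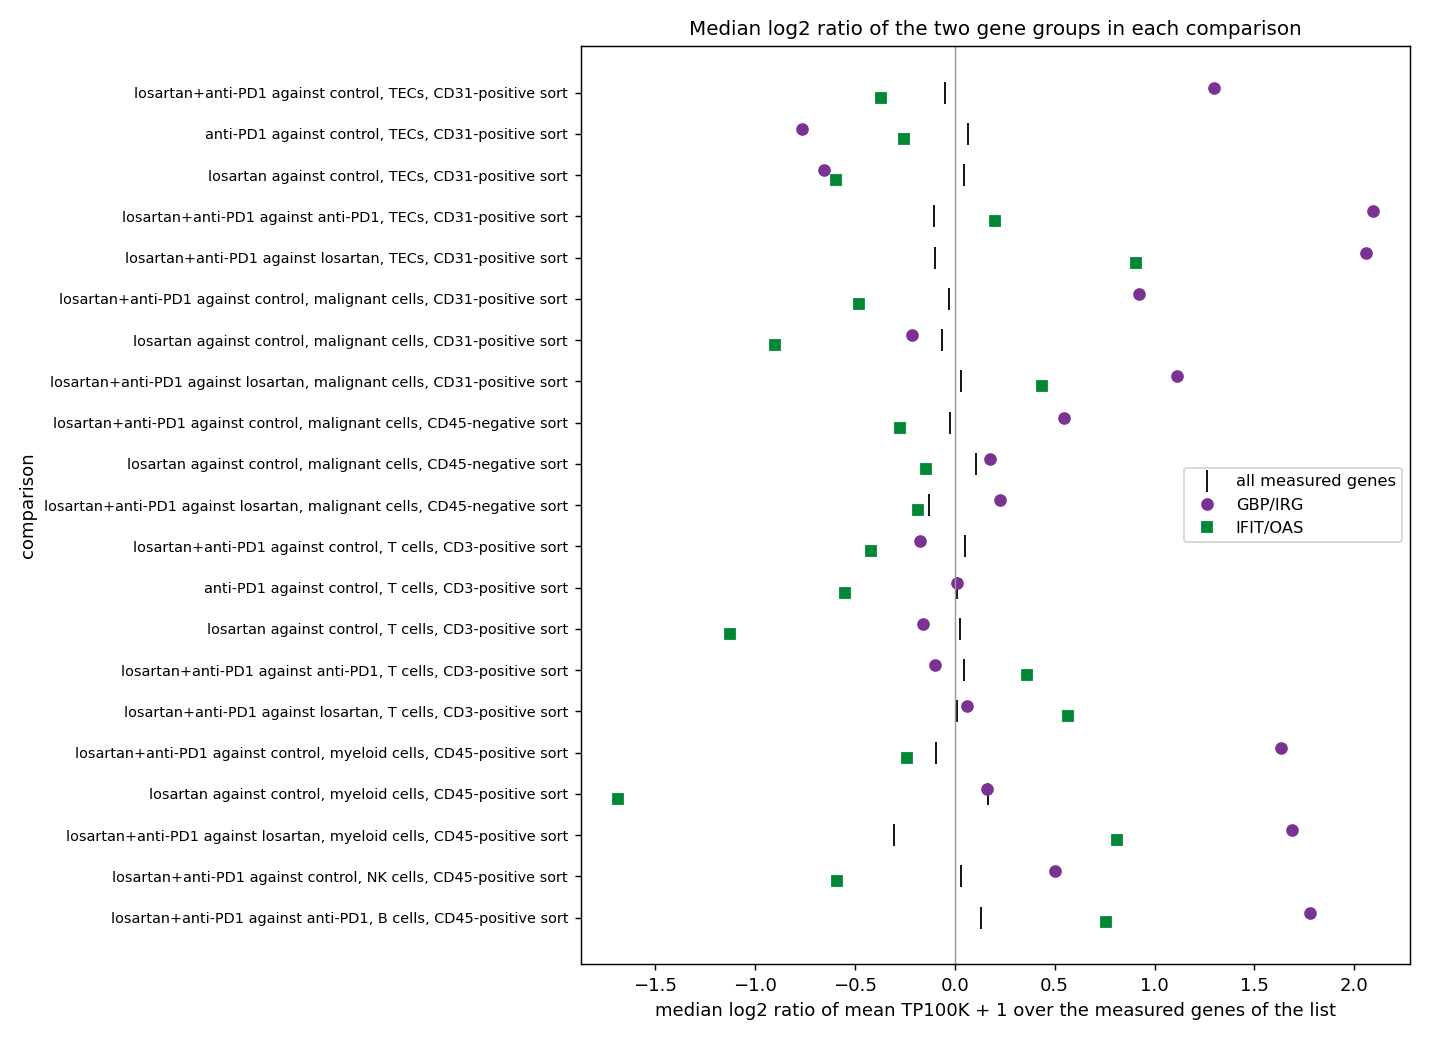
Median log2 ratio of the measured GBP/IRG and IFIT/OAS genes in 21 comparisons of treatments within a cell type and sort, cells labelled microglia left out. For losartan+anti-PD1 against control the GBP/IRG median is above the IFIT/OAS median in TECs (1.30 and −0.37), malignant cells (0.92 and −0.48, 0.55 and −0.27) and myeloid cells (1.63 and −0.24).

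The ligands were sought in the same cells. Of 20 interferon ligand genes listed, 12 were in the file. Ifng, the gene of interferon gamma, was above 0 in 34 of 84 losartan+anti-PD1 T cells (40.5%, exact 95% interval 29.9 to 51.7%), 30 of 88 anti-PD1 T cells (34.1%, 24.3 to 45%), 19 of 76 losartan T cells (25%, 15.8 to 36.3%) and 23 of 79 control T cells (29.1%, 19.4 to 40.4%). The intervals, which cover counting error over cells only, overlap. Mean Ifng was 56.2, 19.7, 35.1 and 30.5 TP100K in the same order, a log2 ratio of 0.86 between losartan+anti-PD1 and control. In NK cells Ifng was above 0 in 16 of 36 losartan+anti-PD1 cells (44.4%) and 6 of 10 control cells (60%). It was at 0 in all TECs of the CD31-positive sort, which allows shares of up to 18.8% under losartan+anti-PD1 and 6.98% in control, and in all malignant, myeloid, microglia and B cells of the sorts compared. Ifnb1, the gene of interferon beta, was at 0 in every cell.

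**Figure D5:**
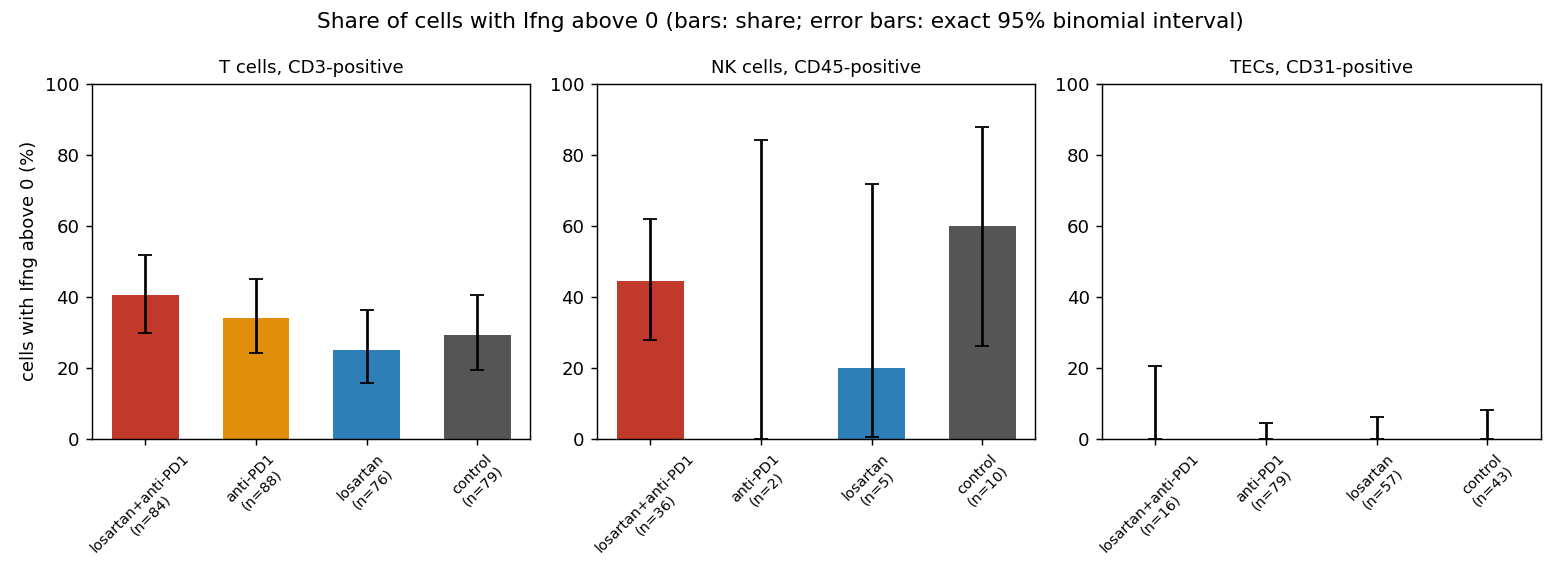
Share of cells with Ifng above 0 in T cells, NK cells and TECs by treatment, as bars from 0 with exact 95% intervals over cells. T cell shares are 40.5, 34.1, 25 and 29.1% under losartan+anti-PD1, anti-PD1, losartan and control with overlapping intervals, and TEC shares are 0.

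The receptors were present in TECs under every treatment. Mean Ifngr1 was 13.2, 17.5, 15.4 and 6.85 TP100K and mean Ifngr2 8.85, 5.20, 6.68 and 9.87 TP100K under losartan+anti-PD1, anti-PD1, losartan and control. Mean Ifnar2 was 32.6, 45.2, 31.9 and 28.04 TP100K, and Ifnlr1, a chain of the lambda receptor, was above 0 in 1 of 79 anti-PD1 TECs and in none of the other 3 treatments. Over the receptors and kinases, 8 of 9 genes were measured between losartan+anti-PD1 and control, with a median of 0.32.

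Of the 8 signal factors and feedback genes, 1 passed 2-fold upward among CD31-positive-sort malignant cells and 3 did in myeloid cells, beside the 0.571% and 14.4% of all genes, with medians of 0.66 and 0.64 between losartan+anti-PD1 and control. Irf1, the interferon gamma-induced factor, averaged 67.9, 22.3 and 23.3 TP100K under losartan+anti-PD1, losartan and control in those malignant cells (log2 ratio to control 1.503), and 105.3, 29.6 and 30.3 TP100K in myeloid cells (1.76). In TECs Irf1 averaged 47.3, 14.2, 12.1 and 33.8 TP100K under losartan+anti-PD1, anti-PD1, losartan and control. In T cells the median of the 8 factors was −0.18.

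A list of 60 other interferon-induced genes, of which 57 were in the file, did not move together in TECs. Between losartan+anti-PD1 and control, 7 of 49 measured were at least 2-fold higher and 8 at least 2-fold lower, with a median of 0.21, beside the 12.4% and 13.4% of all genes. Of the 7, 5 (Cxcl9, Cxcl10, Cxcl11, Ifi27l2a and Ciita) passed the filter only through the losartan+anti-PD1 cells. The T cell-attracting chemokine gene Cxcl10 was above 0 in 6 of 16 losartan+anti-PD1 TECs, 7 of 79 anti-PD1 TECs, 2 of 57 losartan TECs and 2 of 43 control TECs (log2 ratio to control 4.13), and Cxcl9, a gene of the same kind, above 0 in 6 of 16 and 9 of 43 cells of losartan+anti-PD1 and control (2.40). Cxcl11 (3.25), Ifi27l2a (2.53) and Ciita (1.48), the activator of MHC class II genes, were also higher, and Uba7 (−1.70), Oas1g (−1.46) and Trim25 (−1.28) were lowest. In malignant cells of the CD31-positive sort, 4 of 49 were at least 2-fold higher and 0 lower, beside the 0.571% and 0.842% of all genes, among them Cd274, which encodes PD-L1. It was above 0 in 36 of 51 losartan+anti-PD1 cells and 11 of 33 control cells, with means of 5.20 and 0.989 TP100K (1.64). In myeloid cells Cd274 averaged 76.8 TP100K under losartan+anti-PD1 against 18.8 in control (1.97), and 5 of 54 genes of this list were at least 2-fold higher and 10 lower, beside the 14.4% and 18.5% of all genes.

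The scores of the 2 groups were correlated across cells of the same plate in most cell types. Pearson's correlation of GBP/IRG and IFIT/OAS scores was 0.88, 0.61, 0.56 and 0.59 in TECs and 0.68, 0.61, 0.71 and 0.67 in T cells under losartan+anti-PD1, anti-PD1, losartan and control, and 0.67, 0.68 and 0.68 in malignant cells of the CD31-positive sort under losartan+anti-PD1, losartan and control. In anti-PD1 T cells the rank correlation was lower, at 0.26. In myeloid cells Pearson's correlation was 0.42, 0.72 and 0.88 under losartan+anti-PD1, losartan and control. In NK cells it was −0.04 under losartan+anti-PD1 and 0.39 in control, and in B cells 0.26 under losartan+anti-PD1 and 0.44 under anti-PD1. The cells share a library plate. The GBP/IRG score also had a correlation with the number of genes detected, at 0.51 to 0.64 in malignant cells of the CD45-negative sort and 0.28 to 0.36 in TECs, but at −0.28, 0.08, −0.27 and −0.25 in T cells under losartan+anti-PD1, anti-PD1, losartan and control and at −0.44 in control myeloid cells.

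Outside the 42, the genes whose level followed the GBP/IRG score closely over all TECs of the CD31-positive sort included Gm12250 (Pearson r = 0.53), Tap1 (0.53), which encodes a chain of the peptide transporter, Gm4951 (0.49) and Trafd1 (0.44). In the malignant cells of that sort they included Gm12250 (0.85), Tap1 (0.81), Gm4951 (0.79) and Irf1 (0.72), and in malignant cells of the CD45-negative sort Gm12250, Gm4951, Tap1, Herc6 and Irf1, at 0.74 to 0.68. The genes most like the IFIT/OAS score were others in malignant cells: Apol9a (0.67), Apol9b (0.63), Parp10 (0.60), Lgals9 (0.60) and Sp100 (0.59) in the CD31-positive sort. In TECs they included Dhx58 (0.44), Znfx1 (0.43), Trafd1 (0.43) and Tap1 (0.43). In 327 T cells both scores were followed by Pyhin1, at 0.42 for GBP/IRG and 0.51 for IFIT/OAS.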

How the data were processed

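Reads were aligned to the mm10 transcriptome with Bowtie and quantified with RSEM by the authors (RSEM 1.2.8 and TopHat are named in the submitters' processing notes). As deposited by the authors, the CD31-positive and CD3-positive plates hold TPM, which have the same sum in every cell, with exact whole numbers making up 1.01% and 0.995% of their nonzero values. The CD45-negative and CD45-positive plates, described as TPM too, were deposited by the authors with values that were read here as RSEM expected counts, since exact whole numbers make up 82.2% and 73.8% of the nonzero values and the sums differ between cells. Cell types, clusters and treatments are the authors' labels, and cells had passed the authors' filters. Doublets were not called here.

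Each cell was scaled to 100000 (TP100K). Ratios are log2 of mean TP100K with a pseudocount of 1, over genes detected in no less than 25% of cells under one treatment or the other, with at least 10 cells per treatment. Treatments were not tested against each other, since each treatment of a sort is 1 plate. The members, gene lists and comparisons were chosen with earlier results of these data known. The named members are the 5 highest and 3 lowest ratios of a comparison, apart from those described in full for their role, which were chosen after their values were seen. Shares have exact Clopper-Pearson intervals at 95%, and where none of n cells was above 0 the limit given is 3/n. The ratio step alone was tested on simulated data, with counts modelled on control malignant cells of the CD45-negative sort. Alternatives covered the pseudocount, detection filter, scaling, averaging, range of genes detected, highest-scoring cell, macrophage-marker cells, clusters, thinning and near-identical genes. Gene positions came from GENCODE vM21 (GRCm38). The software was SciPy 1.17.1, pandas 2.3.3 and NumPy 2.4.6 under Python 3.11.15, with plots by matplotlib 3.10.9. One gene that the rule for similar genes names is not reported here.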

Additional observations from a re-analysis of the deposited data

Results flagged for a closer look

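The IFIT/OAS genes lay in opposite directions from control in cell types of the CD45-positive sort under losartan+anti-PD1. Their median log2 ratio was 1.52 in cells labelled microglia (12 genes, 13 losartan+anti-PD1 cells against 28 control cells) and −0.59 in NK cells (5 genes, 36 against 10 cells), and the difference was not tested.

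Oligodendrocytes entered no comparison, since none came from the control plate of the CD45-negative sort. The 29 oligodendrocytes of the anti-PD1 plate of that sort had a GBP/IRG score of 2.16 and an IFIT/OAS score of 0.97.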

How the results depend on the processing

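For losartan+anti-PD1 against control, the GBP/IRG median ranged over 12 alternatives from 0.91 to 1.62 in TECs, and it stayed above 0 in malignant cells of both sorts (0.66 to 0.94 and 0.31 to 0.86). The IFIT/OAS median ranged from −1.18 to −0.15 in TECs and from −0.96 to −0.22 in malignant cells of the CD31-positive sort. A fixed fold of 1.5 was taken as a move of a median. A change of sign was counted only for medians of at least that fold in either direction. Of the alternative values of the 16 main medians, 11 moved and 0 were counted as a change of sign. Of 308 for 29 further medians, 21 moved and 3 were counted as a change of sign. Some smaller main medians did change sign. In T cells the GBP/IRG median of losartan+anti-PD1 against control ranged from −0.23 to 0.24 and kept its sign in 7 of 10 alternatives. For anti-PD1 against control, T cells kept it in 8 of 10 for GBP/IRG and 9 of 10 for IFIT/OAS genes. In TECs the IFIT/OAS median of losartan+anti-PD1 against anti-PD1 kept it in 7 of 11.

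With cells of 2000 to 6000 genes only, the median was −1.04 for IFIT/OAS genes in malignant cells of the CD45-negative sort (losartan+anti-PD1 against control), 0.85 for GBP/IRG and 0.067 for IFIT/OAS genes in T cells (anti-PD1 against control), 1.03 for GBP/IRG and −1.87 for IFIT/OAS genes in myeloid cells (losartan+anti-PD1 against control) and −0.0052 for IFIT/OAS genes in myeloid cells (losartan+anti-PD1 against losartan). Within cluster 3 of TECs the IFIT/OAS median was −1.18 (losartan+anti-PD1 against control, 5 against 3 cells) and the GBP/IRG median −0.02 (anti-PD1 against control), and within clusters 7 and 12 the GBP/IRG median was 0.076 (losartan against control). In cells labelled microglia the GBP/IRG median was 0.82 when scaled by the 75th percentile, 0.66 as a difference of mean ln(TP100K + 1) and 0.68 in cluster 6, and the IFIT/OAS median was 0.71 as a difference of mean ln. Scaled by the 75th percentile, myeloid cells had an IFIT/OAS median of −0.90. In NK cells it was 0.56 with the filter at 50%, which left 1 gene. The cause of these changes was not tested, and some of these settings leave fewer cells or genes. At a fold of 1.5 in place of 2, 16 members were higher and 7 lower in TECs (losartan+anti-PD1 against control), beside 22.9% and 25.3% of all genes. The restriction to clusters 7 and 12 was not run for anti-PD1, which had 1 such TEC. No paired analysis was possible because each treatment of a sort is 1 plate with no replicate number, and no replicate could be left out. Read depth is unknown for the TPM plates, 16 losartan+anti-PD1 TECs and 11 myeloid cells limit the precision, and the spread between mice was not measured.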
